A study of Sus scrofa with 16 samples.

Results

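The expression of 10 genes for plasma carrier, clotting and protease inhibitor proteins was followed array by array in liver and in subcutaneous backfat of the pig. The genes were ALB, TTR, RBP4, HPX, SPP2, FGB, FGG, PLG, SERPINA1 and SERPINA3-2. They were taken as every probe set that the platform annotation assigned to 1 of these 10 symbols, which gave 12 of the 24123 probe sets of the array. RBP4 and FGG had 2 probe sets each, and the dimmer of each pair is called the other probe set. The genes were chosen by their GCRMA values in backfat, which were low and differed from array to array. The backfat levels, their spread and the distance to liver are therefore given as descriptions without a test.

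The samples came from Iberian pigs, a breed with abundant body fat, at 211 days of age. All 16 samples shared this breed and age, and all animals ate the same pelleted diet before the restriction began. Males and females were fed either at a high level or with a 20% restriction, called low here, and liver and subcutaneous backfat were each represented by 8 arrays. That made 8 groups of 2 arrays, and in each tissue 4 arrays stood for either sex and for either feeding level. Arrays are named by sex and by the animal number in the labels. In backfat the low arrays were male 15, male 16, female 20 and female 23, and the high arrays male 14, male 17, female 21 and female 22. The labels hold 10 animal numbers although the design describes 8 animals, and numbers 20 and 21 carry opposite feeding levels in the 2 tissues. Only the 4 males, 14 to 17, can therefore be followed from liver to backfat. The labels do not say which part of a liver or backfat depot was sampled, nor whether blood was removed.

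In mammals these proteins are made mainly by hepatocytes, which secrete them into the blood. Albumin, transthyretin, retinol-binding protein and hemopexin carry fatty acids, thyroid hormone, retinol and heme. Fibrinogen and plasminogen form and dissolve the clot, and serpins hold proteases in check. Adipose tissue is known as a further site of RBP4 synthesis, while the other genes are usually read as liver genes.

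Expression was given as GCRMA values in log2 units, on which equal differences are equal fold changes. GCRMA sets probe sets without signal near a low floor, and 4 was used here as the line above which a probe set was counted as measured. The medians of the 16 arrays ran from 3.93 to 4.12, between 49.4% and 50.9% of an array's probe sets exceeded 4, and the table's highest value was 15.62. Backfat female 21 stood apart in several technical readings. Its mean for the BioB spike-in was 6.44, against 7.37 to 7.80 on the other backfat arrays, and its actin 3' minus 5' difference was 2.19, against 2.85 to 3.41. The same difference for GAPDH was 1.45, against 1.73 to 2.36. Fat cell identity was plain in backfat, where ADIPOQ, the adipokine adiponectin, averaged 12.49 ± 0.66 (SD, n = 8) and LEP, leptin, 8.49 ± 1.32 (SD, n = 8). In liver these genes averaged 2.14 and 2.49. Probe sets differ in how brightly they bind, so the order of genes by value, and the list means and sums given further on, describe array signal and not relative transcript amounts.

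In liver every one of the 12 probe sets was above 4 on all 8 arrays, and for most of them the arrays lay close together. ALB, for albumin, the most abundant plasma protein and a carrier of fatty acids, ran only from 15.06 to 15.28, with a mean of 15.17 ± 0.07 (SD, n = 8). FGB averaged 14.51 ± 0.15 (SD, n = 8), HPX 14.16 ± 0.09 (SD, n = 8) and PLG 13.94 ± 0.10 (SD, n = 8). The median SD of the 12 probe sets over the liver arrays was 0.16, against 0.30 over all probe sets tested in liver. The latter were not matched to the 12 for brightness, and ALB lay close to the table's highest value of 15.62. The smaller SD is therefore not read as steadier expression.

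In backfat the same genes were lower and scattered. For each of the 12 probe sets the lowest liver array lay above the highest backfat array, by 3.59 for the FGG other probe set to 9.44 for SERPINA3-2. Just 1 probe set, the brighter of RBP4, was above 4 on all 8 backfat arrays, and 4 were above it on 4 to 7 arrays. Another 4 were above 4 on 2 arrays, 1 on 1 array and 2 on none. The SD over arrays was larger in backfat than in liver for 11 of the 12, with a median of 1.30 against 0.29 over all probe sets tested in backfat. Fewer cells of a type and less RNA per cell cannot be told apart in such bulk samples.

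**Figure D1:**
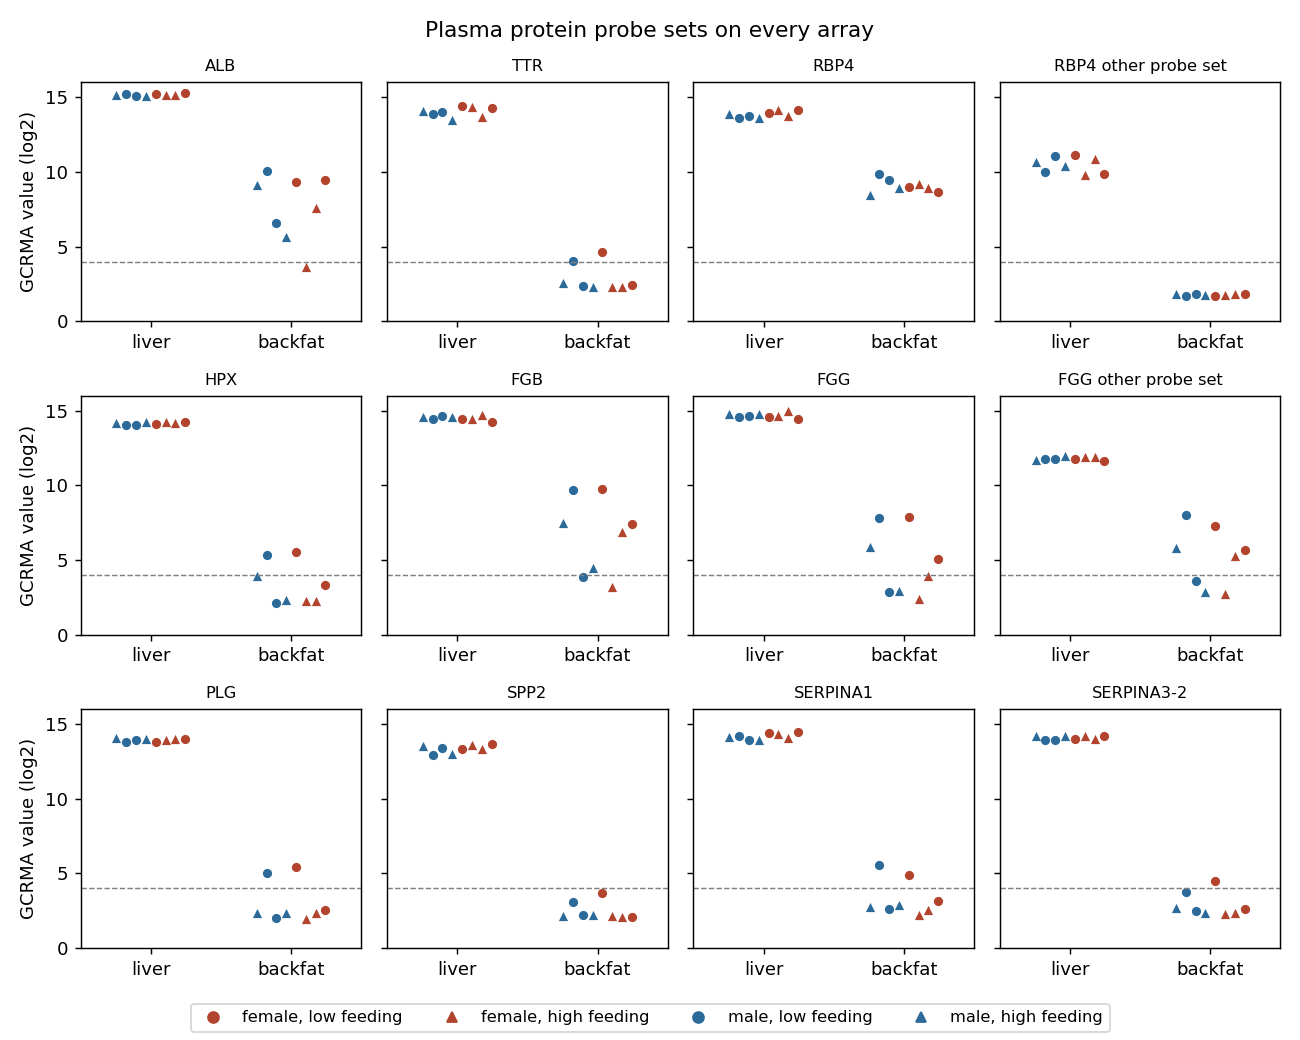
GCRMA values (log2) of the 12 probe sets on every array, 1 panel per probe set, with liver on the left and backfat on the right. Each point is 1 array, colour gives sex, shape gives feeding level and the dashed line marks 4; backfat points spread more widely than liver points for 11 of the 12, most of all for FGB, from 3.18 to 9.73, while the RBP4 other probe set spreads more in liver, from 9.81 to 11.12.

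Among the carriers, ALB was measured on more backfat arrays than any gene but RBP4. Its values were 10.09 on male 15, 6.59 on male 16, 9.30 on female 20 and 9.44 on female 23 under low feeding. Under high feeding they were 9.11 on male 14, 5.64 on male 17, 3.62 on female 21 and 7.58 on female 22. ALB was thus above 4 on 7 of 8 arrays, and the lowest and highest arrays lay 6.47 apart. The feeding groups overlapped. The mean was 7.67 ± 2.25 (SD, n = 8), which is 7.50 below that of liver. Within the males, liver exceeded backfat by 6.03 in male 14, 5.11 in male 15, 8.53 in male 16 and 9.42 in male 17.

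TTR, for transthyretin, which carries thyroid hormone and the retinol-binding protein complex, was near the floor on most backfat arrays. It stood at 4.64 on female 20 and 4.07 on male 15. The other 6 arrays lay between 2.28 and 2.55. With those 2 arrays the SD was 0.93, and over the other 6 it was 0.11. HPX, for hemopexin, which binds free heme, behaved alike, with 5.57 on female 20 and 5.37 on male 15. Male 14 followed with 3.92 and female 23 with 3.32, and the remaining 4 arrays lay between 2.14 and 2.31. The liver mean exceeded the backfat mean by 11.15 for TTR and by 10.77 for HPX, and since most backfat values were below 4 these distances depend on where GCRMA places its floor.

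RBP4, for the plasma carrier of retinol, departed from the other 9 genes. Its brighter probe set stood at 9.87 on male 15, 9.47 on male 16, 9.03 on female 20 and 8.69 on female 23. It stood at 8.45 on male 14, 8.91 on male 17, 9.19 on female 21 and 8.90 on female 22. The 8 arrays spanned 1.42, and female 21, the lowest array for ALB and FGB, was exceeded only by males 15 and 16. The mean was 9.06 ± 0.45 (SD, n = 8) in backfat and 13.86 ± 0.21 (SD, n = 8) in liver. The RBP4 other probe set lay between 1.70 and 1.82 on all backfat arrays and averaged 10.48 ± 0.54 (SD, n = 8) in liver, at least 89.2-fold above 4. The probe sets of this gene thus disagree on whether backfat holds a measurable level, and the files do not show which part of the transcript each one reads.

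SPP2, for secreted phosphoprotein 2, also called spp24, a protein stored in bone and made in liver, was below 4 on all 8 backfat arrays. The highest values were again 3.71 on female 20 and 3.11 on male 15, with the other 6 between 2.09 and 2.23. Its liver mean of 13.33 ± 0.26 (SD, n = 8) was at least 646-fold above 4. Differences between values below 4 are not read as differences in expression.

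FGB, for the beta chain of fibrinogen, had the largest SD over the backfat arrays among the 12 probe sets. It stood at 9.71 on male 15, 3.89 on male 16, 9.73 on female 20 and 7.44 on female 23. Under high feeding it stood at 7.50 on male 14, 4.45 on male 17, 3.18 on female 21 and 6.90 on female 22. Male 15 and female 20 were highest, males 16 and 17 and female 21 were lowest, and the remaining 3 arrays lay between. FGB had a mean of 6.60 ± 2.53 (SD, n = 8), and its liver minus backfat difference within males ran from 4.72 in male 15 to 10.78 in male 16.

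FGG, for the gamma chain, varied alongside FGB. Its values were 7.84, 2.89, 7.88 and 5.08 on the low arrays male 15, male 16, female 20 and female 23. They were 5.88, 2.92, 2.37 and 3.90 on the high arrays male 14, male 17, female 21 and female 22. The 4 arrays on which FGG was above 4, female 20, male 15, male 14 and female 23, were also the 4 highest for FGB, and on the other 4 FGG was below 4. Pearson's r between the chains was 0.97, given as a description over 8 arrays of shared RNA. The FGG other probe set had 8.02 on male 15 and 7.28 on female 20, and 2.76 on female 21. The fibrinogen chain genes FGG, FGA and FGB follow one another in the RefSeq order of pig genes (assembly Sscrofa11.1), and no probe set used here was named FGA.

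PLG, for plasminogen, the precursor of the clot-dissolving protease plasmin, was above 4 on only 2 backfat arrays, with 5.44 on female 20 and 4.99 on male 15. The other 6 arrays lay between 1.92 and 2.58. Its liver mean was 13.94, and male 15 was closest to its own liver, at 8.82 below, while the other males were 11.62 to 11.97 below.

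The serpins followed PLG. SERPINA1, for alpha-1-antitrypsin, which inhibits neutrophil elastase, stood at 5.56 on male 15 and 4.89 on female 20, with the other 6 arrays between 2.20 and 3.18. SERPINA3-2, of the alpha-1-antichymotrypsin family, was above 4 only on female 20, at 4.46, and stood at 3.72 on male 15. The other 6 arrays lay between 2.28 and 2.65. SERPINA3-2 has close relatives beside it in the pig genome, among them the gene listed as LOC396685, so its probe set may also bind their transcripts and its value is uncertain as to which copy it reads.

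**Figure D2:**
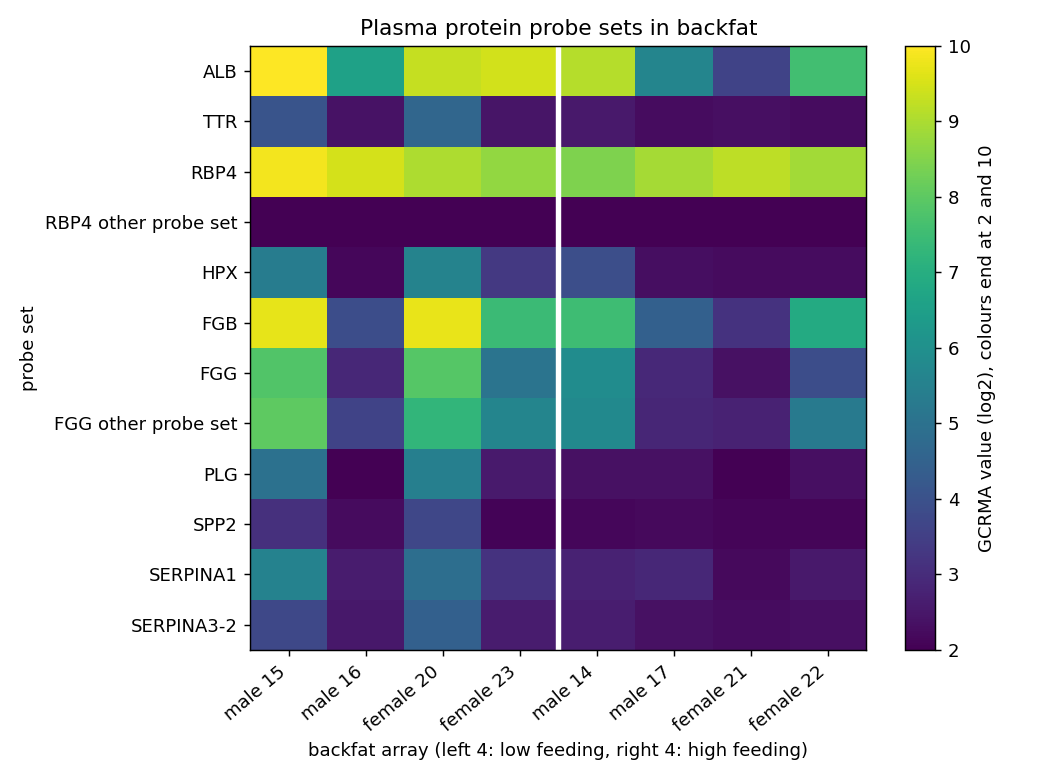
Colour map of the GCRMA values (log2) of the 12 probe sets on the 8 backfat arrays, with the low arrays left and the high arrays right of the white line; the colour scale ends at 2 and 10. The columns of male 15 and female 20 are brightest for 9 of the 12 probe sets, and the RBP4 row is even, from 8.45 to 9.87.

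The unevenness had the same shape across genes. Male 15 and female 20 were the 2 highest arrays for 9 of the 12 probe sets (75.0%), the exceptions being ALB, where female 23 was second after male 15, and both probe sets of RBP4. That order was found in 533 of the 12686 probe sets tested in backfat (4.20%), and in 63 of the 331 whose liver mean was above 12 (19.0%). For SPP2 both of these values were below 4, and for SERPINA3-2 that of male 15 was. Female 21, the array that stood apart in technical readings, was lowest for 7 of the 12 (58.3%), each time at a value below 4. It was also lowest for 2592 of the 12686 probe sets tested in backfat (20.4%) and for 106 of the 331 (32.0%). Of the 10 genes, 9 were above 4 on female 20 and 8 on male 15, while 4 were on male 14 and female 23, 3 on male 17 and female 22, 2 on male 16 and 1 on female 21. Averaged over the 10 genes, the arrays ran from 3.14 on female 21 to 6.47 on female 20, with male 15 at 6.43 and the next, male 14, at 4.73. These shares are descriptions, since the genes were chosen for their uneven level.

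Without male 15 and female 20 the spread shrank for most genes but not for all. Over the other 6 arrays the median SD of the 12 probe sets was 0.35. PLG then had an SD of 0.25, SERPINA1 of 0.33, SERPINA3-2 of 0.15 and SPP2 of 0.06. On those 6 arrays each of these genes lay below 4, so these SDs describe values near the floor and not steady expression. Leaving out the highest arrays also lowers a spread by itself. ALB and FGB kept wide spreads, with SDs of 2.20 and 1.94 over those 6 arrays, and FGG kept 1.39. ALB and the fibrinogen chains thus varied among all 8 arrays, whereas TTR, HPX, PLG and the serpins were above 4 on no more than those 2 arrays.

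Pairs of the genes were followed over the 8 backfat arrays by Pearson's r, again as a description of arrays that share RNA, processing and depth. The 36 pairs without RBP4 had r from 0.49 to 0.99 with a median of 0.89. Over the 6 arrays without male 15 and female 20 the same pairs ran from -0.60 to 0.93 with a median of 0.67. In liver their median was 0.11. The 9 pairs with RBP4 had a median r of 0.33 over 8 backfat arrays and of -0.67 over 6. SPP2, below 4 on all arrays, had r of 0.49 to 0.99 with the other 8 genes over 8 arrays, and from -0.60 to -0.04 over 6. RBP4 thus did not follow ALB (r of -0.67), FGB (-0.83) or FGG (-0.86) once male 15 and female 20 were left out. SPP2 lay between 2.09 and 2.23 on those 6 arrays, so whether it followed the other genes cannot be read. Many of the values behind these r lie below 4.

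Among all probe sets tested in backfat, those with the array pattern closest to the mean of the 10 genes were sought by r over the 8 arrays. The 8 nearest named genes were GSTA1, CYP3A39, APOB, MED4, TF, LOC396685, HP and LOC396684, with r from 0.98 for GSTA1 to 0.96 for LOC396684. GSTA1, a glutathione transferase, was at 5.03 on male 15 and 5.01 on female 20 and at most 3.66 elsewhere. HP, for haptoglobin, which binds free hemoglobin, was at 9.57 and 9.34 on those arrays and 3.10 on female 21. TF, for transferrin, the iron carrier, was at 8.62 and 8.88 and 3.65. MED4, a subunit of the Mediator complex, moved by far less, from 3.82 to 4.81. The 3 lowest r belonged to INPPL1 (-0.95), CYSTM1 (-0.95) and GNLY (-0.95). In all, 43 of 12686 probe sets had r above 0.9, and 24 of them carried 1 symbol outside the 10 genes. The 10 genes make up the mean and were not left out of the 43. GSTA1, CYP3A39 and LOC396685 were above 4 only on male 15 and female 20, the arrays that stand out in the mean. The filter thus admitted them only through those arrays, so their r is in part built in and is given as a description.

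Other genes of the same pathways were taken from lists. Of 33 other measured plasma carriers and secreted hepatocyte proteins, 19 were above 4 on at least 2 backfat arrays, 7 on all 8 and 9 on none. APOA1, the main apolipoprotein of high-density lipoprotein, averaged 11.25 in backfat, C4BPA 9.86, ORM1 8.78, C9 8.20, ITIH3 8.07 and the complement protein C3 7.43. The widest spreads were those of HP, with an SD of 2.46, APOC3, an apolipoprotein, with 2.28, GC, the vitamin D carrier, with 1.86, and TF with 1.75. Male 15 and female 20 were the 2 highest arrays for 16 of these 33 genes (48.5%). Of the 6 genes with the highest backfat means, C3 had that order, with 9.07 on female 20 and 8.55 on male 15, and the other 5 did not. ORM1 ran from 8.50 to 8.94, and APOA1 was lowest on female 20, at 10.68.

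Of 12 other measured coagulation genes, 5 were above 4 on at least 2 backfat arrays, 4 on all 8 and 5 on none. PROS1, the anticoagulant protein S, averaged 11.31 and SERPING1, the C1 inhibitor, 11.30, with SDs of 0.15 and 0.16. A2M, a broad protease inhibitor, averaged 7.67 and F5, clotting factor V, 6.61. KLKB1, prekallikrein, averaged 3.77 and KNG1, kininogen, 2.93. F9, clotting factor IX, had the widest spread, with an SD of 0.86, and was above 4 only on male 15, at 4.73. For 4 of the 12 (33.3%) male 15 and female 20 were the 2 highest arrays. They were F9, KNG1, KLKB1 and SERPIND1, heparin cofactor II, all with a backfat mean below 4, and SERPIND1 is named after its values were seen. The 4 genes above 4 on every array, PROS1, SERPING1, A2M and F5, had other orders.

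Markers of liver cells that are not secreted were examined beside these results. Of 17 measured hepatocyte enzymes and transcription factors, 5 were above 4 on at least 2 backfat arrays, 3 on all 8 and 11 on none. The 11 at the floor included the arginase ARG1 and the transcription factor HNF4A, which are named because they are defining hepatocyte genes and were picked after their values were seen. Genes above 4 on all arrays were FBP1, an enzyme of gluconeogenesis, at 8.93, CEBPA, a transcription factor that fat cells share, at 6.82, and ASS1, an enzyme of the urea cycle, at 5.80. FBP1 ran from 9.03 to 9.65 on the low arrays and from 8.36 to 8.65 on the high arrays, so its feeding groups did not overlap, as in 6.61% of all probe sets tested in backfat. TAT, a tyrosine-degrading enzyme, averaged 3.58. CYP2E1, a cytochrome P450 of ethanol metabolism, reached 7.53 on female 20 and 5.24 on male 15, with 4.70 on female 23 and at most 3.24 elsewhere. CYP3A29, another P450, was above 4 only on male 15, at 4.64, and female 20, at 4.36. Male 15 and female 20 were the 2 highest arrays for 5 of the 17 genes (29.4%), CYP2E1, CYP3A29, CPS1, BHMT and MAT1A. CPS1 was above 4 only on male 15, at 4.03, and BHMT and MAT1A were below 4 on all backfat arrays. CPS1, BHMT and MAT1A are named after their values were seen. The list mean was 3.92 on both male 15 and female 20 and lowest on female 21, at 3.39. Summed on the linear scale, the list ran from 869 to 1203 on the low arrays and from 582 to 666 on the high arrays. FBP1 alone made up 522 to 805 of the low and 328 to 400 of the high sums. Without FBP1, a split made after its values were seen, the sums were 247 to 448 and 227 to 322 and overlapped. The list's part in the level of the 10 plasma protein genes was not tested.

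**Figure D3:**
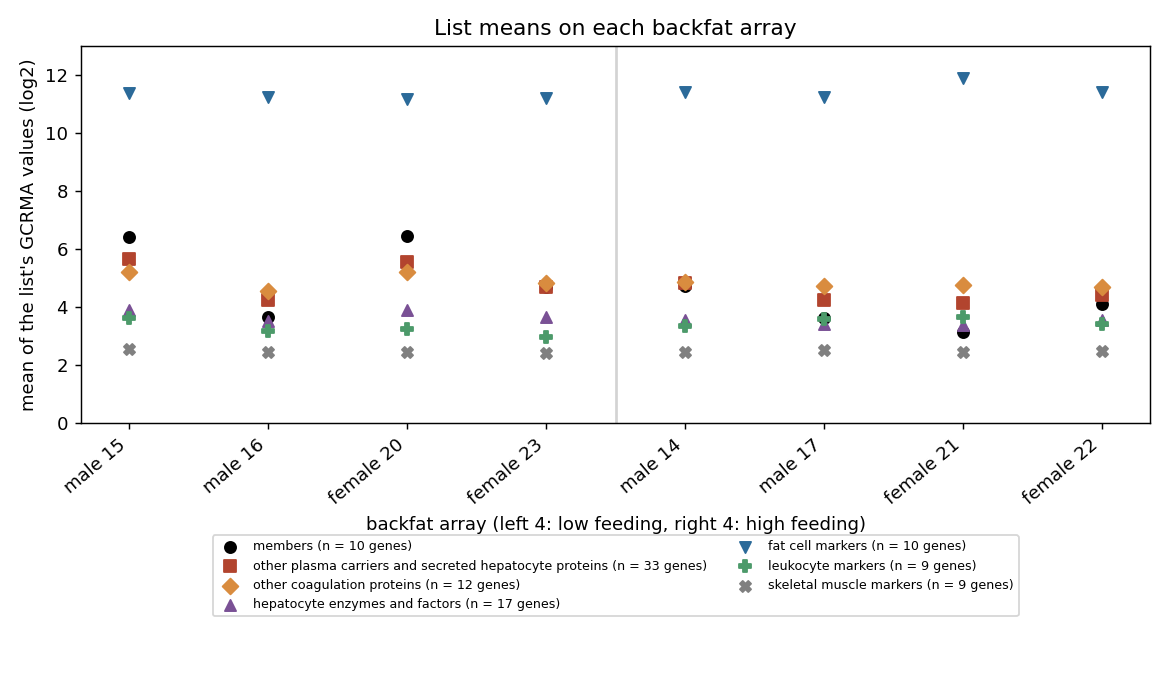
Mean GCRMA value (log2) of the 10 plasma protein genes (black circles, "members") and of 6 other gene lists on each backfat array, low arrays left and high arrays right of the grey line. The 10 genes peak on male 15 (6.43) and female 20 (6.47), while the fat cell markers stay between 11.19 and 11.89.

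Other cell types were checked in the same way. All 10 measured fat cell markers were above 4 on all backfat arrays, among them FABP4 at 14.79, LPL at 13.21, ADIPOQ at 12.49 and PNPLA2 at 12.34. Their list mean was lowest on female 20 (11.19) and highest on female 21 (11.89), with male 15 at 11.37, and their linear sum ran from 52518 to 58802 on the low arrays and from 49679 to 75134 on the high arrays. Red cell and platelet markers held 2 of 6 genes above 4 on at least 2 arrays, HBB at 7.67 and ALAS2 at 4.01. HBB, a hemoglobin chain, was highest on female 21, at 8.41, the array with the lowest mean of the 10 plasma protein genes. ALAS2 had another order, with 4.90 on male 14, its highest array, and 3.77 on female 21. Leukocyte markers held 3 of 9, led by S100A9 at 6.39 and CD163 at 4.97. Skin epithelium markers held 2 of 5, KRT10 at 7.10 and PERP at 3.62, with PERP at 5.65 on female 20. In liver KRT10 averaged 7.37 and PERP 11.69, so neither was particular to skin here. The other 3 skin genes were below 4 on all backfat arrays. Endothelium and stroma markers held 7 of 12, led by DCN at 14.06 and PECAM1 at 11.27, and pancreas and gut markers 1 of 5, AMY2 at 14.42. AMY2 averaged 14.07 in liver, so it was not particular to pancreas here. Skeletal muscle markers were below 4 on all backfat arrays in 9 of 9 genes. The linear sums of the red cell list ran from 193 to 261 on low and from 212 to 371 on high arrays, and those of the leukocyte list from 92.8 to 301 and from 148 to 483. The part of these cell types in the spread of the plasma protein genes was not tested.

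The design asked whether feeding level altered expression in backfat, and 9 of the 12 probe sets were bright enough to be tested there. None of the 9 passed limma's test at a Benjamini-Hochberg adjusted p of 0.05, and 0 of all 12686 probe sets did (percent called 0), with 1410 (11.1%) at an unadjusted p under 0.05. None of the 9 reached an unadjusted p under 0.05, and none had feeding groups that did not overlap, against 838 of 12686 (6.61%). The adjusted p-values of the 9 from limma lay between 0.466 and 0.615. TTR, HPX, PLG and SERPINA1 entered the test only through male 15 and female 20, which are both low arrays, so the filter fixed the direction of these 4. The genes were also chosen on the same uneven backfat levels, and no count or median of directions is read from them.

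ALB averaged 8.86 ± 1.55 (SD, n = 4) under low and 6.49 ± 2.38 (SD, n = 4) under high feeding, which differ by 2.37 ± 1.23 (SE) with a limma adjusted p of 0.515. FGB averaged 7.69 ± 2.75 (SD, n = 4) and 5.51 ± 2.04 (SD, n = 4), which differ by 2.18 ± 1.53 (SE) with an adjusted p of 0.615 from limma. The groups overlapped in both. FGG differed by 2.15 ± 1.28 (SE) and its other probe set by 1.97 ± 1.18 (SE). PLG, SERPINA1, HPX and TTR were below 4 on all 4 high arrays and above it on 2 low arrays. Their fitted differences of 1.50, 1.45, 1.42 and 1.03 became 0.61, 0.61, 0.74 and 0.18 with values under 4 set to 4. RBP4 had the smallest difference, 0.40 ± 0.18 (SE), and the lowest adjusted p from limma of the 9, 0.466. Without both male 15 and female 20, an alternative chosen after seeing the data, the difference was 1.53 for ALB, 0.16 for FGB, 0.21 for FGG, 0.46 for its other probe set and 0.22 for RBP4. TTR, HPX, PLG and SERPINA1 were then above 4 on no array and were not tested. With 1 array left out at a time the FGB difference ran from 0.73 to 3.64, that of ALB from 1.38 to 3.36, that of FGG from 0.91 to 3.39 and that of its other probe set from 0.87 to 3.07. Both FGG probe sets were lowest without male 15 and highest without male 16. Without female 21, the high array with the low spike-in, the differences were 1.26 for FGB and 1.38 for ALB.

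**Figure D4:**
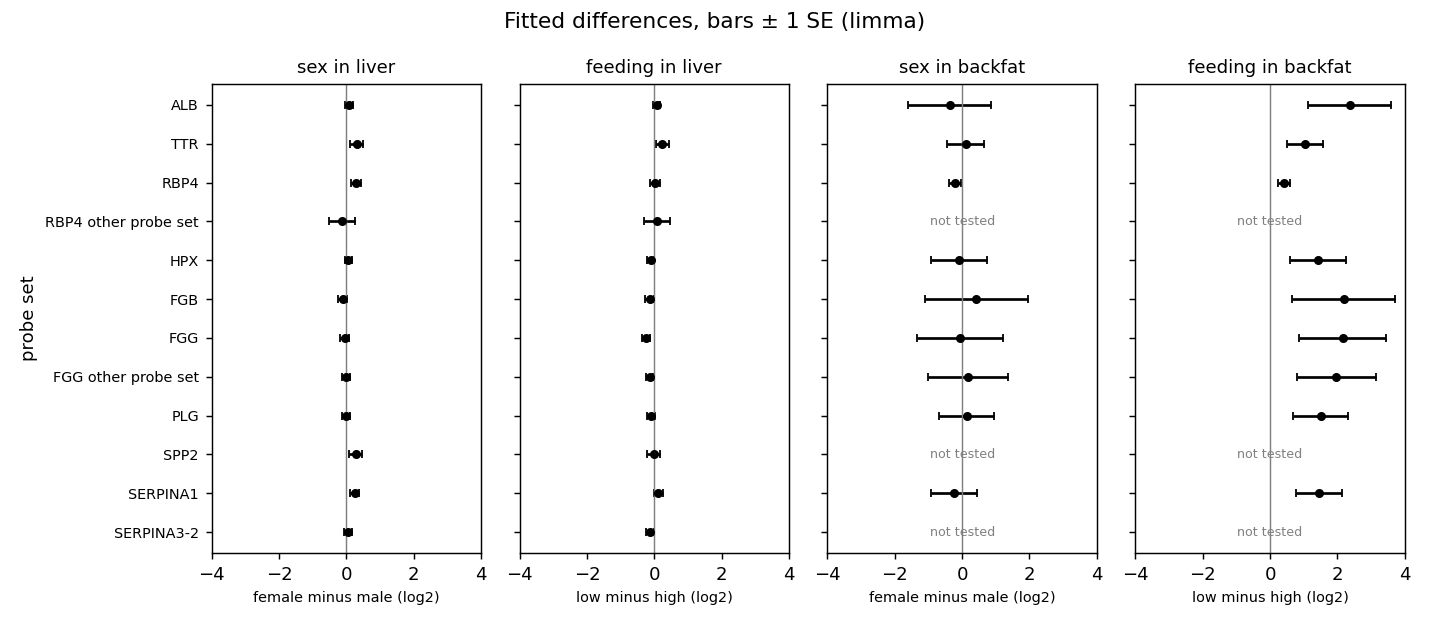
Fitted log2 differences of the 12 probe sets with bars of ±1 SE from limma, in 4 panels for sex (female minus male) and feeding (low minus high) in liver and backfat, on 1 shared axis; probe sets too dim for a fit are marked as not tested. The liver differences sit between -0.24 and 0.31, while the feeding differences in backfat run from 0.40 to 2.37 with bars of up to 1.53.

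Sex was compared over the same backfat arrays. None of the 9 tested probe sets was called, against 14 of 12686 (0.11%), and none reached an unadjusted p under 0.05, against 6.04%. No probe set had sexes that did not overlap, against 3.54% of all tested. TTR, HPX, PLG and SERPINA1 were above 4 on only 1 array of each sex, and the filter admitted them through these arrays. Their sexes thus had to overlap, so the overlap is read only for ALB, RBP4, FGB and both FGG probe sets. The differences (female minus male) ran from -0.37 ± 1.23 (SE) for ALB to 0.42 ± 1.53 (SE) for FGB. Leaving out 1 array turned the sign of either gene. Adjusted p-values from limma lay between 0.868 and 0.995.

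The liver arrays offered a test of the same genes on values that had no part in the choice of an uneven backfat level. None of the 12 probe sets was called for feeding, where 0 of 12617 were (percent called 0), and none reached an unadjusted p under 0.05 (11.5% of all tested) or had groups that did not overlap (5.9%). The differences (low minus high) ran from -0.24 ± 0.12 (SE) for FGG, at a limma adjusted p of 0.503, to 0.23 ± 0.19 (SE) for TTR. For sex, where 572 of 12617 probe sets were called (4.53%), 0 of the 12 were. The differences (female minus male) ran from -0.13 for the RBP4 other probe set to 0.31 ± 0.19 (SE) for TTR. The limma adjusted p-values lay between 0.350 and 0.986. None of the 12 reached an unadjusted p under 0.05 (19.2% of all tested) or had sexes that did not overlap (11.8%). A direct test of whether the effect differed between backfat and liver, in a limma fit of all 16 arrays added after the data were seen, gave adjusted p-values from 0.576 to 0.979 for feeding and from 0.385 to 0.996 for sex over the 12 probe sets. Unlike the liver tests, it used the backfat values by which the genes were chosen. It had no animal block and shared 1 residual variance between tissues whose median SDs were 0.16 in liver and 1.30 in backfat. No conclusion is drawn from it. Male 15, among the 2 highest arrays in backfat for 11 of the 12 probe sets, was not so placed in liver. Its liver values of FGB and FGG, 14.43 and 14.54, were the lowest of the 4 males, and its liver ALB of 15.21 lay within the 0.22 spanned by the 8 arrays.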

How the data were processed

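Biotin-labelled cRNA, made from RNA isolated with a RiboPure kit, was read on Affymetrix arrays, per the labels' protocols. The authors deposited log2 expression values made with GCRMA, per the submitters' processing notes. GCRMA's settings, and which arrays it processed jointly, are not known from the sources used here. No scan date was at hand, so no batch was examined. The 10 genes and all gene lists were chosen with earlier results of these data known.

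Of 24123 probe sets, 124 controls were left out. Of the rest, 10069 had 1 symbol in the platform annotation, 198 had several, and 13732 were absent from it and are unnamed here. All 12 probe sets matched the RefSeq gene table (Sscrofa11.1) by Entrez ID with the same symbol. It was used only for names and for gene order. For a gene's summary the probe set of highest mean over the 16 arrays was taken. From the lists, the text names up to 6 genes of highest backfat mean and up to 4 of largest SD for the liver protein lists, and up to 4 of highest mean for other cell types.

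Testing required a log2 value above 4 on 2 or more arrays of that tissue, which left 12617 in liver and 12686 in backfat. The 4 group means of sex and feeding were fitted per tissue with limma 3.58.1 in R 4.3.3 (lmFit, eBayes), with no animal block. Contrasts gave sex averaged over feeding and feeding averaged over sex, with Benjamini-Hochberg adjustment over all probe sets tested and a threshold of 0.05. The code was tested on simulated data. Within a tissue each array carries its own animal number, but across tissues the females cannot be matched by number. The p-values measure the spread between these samples. The number of arrays, 4 a side, limits the precision. Where all backfat arrays lay below 4, the fold is a lower bound, the liver mean against 4. The settings varied were the filter (none, or above 6), the variance model (trended and robust), the normalization (quantiles, or equal medians), the floor (values under 4 raised to 4), array weights, joint fitting of all 16 arrays with and without the animal as a random replicate block, and leaving out each array. Males 14 to 17 are the same animals in both tissues by their numbers. Across tissues, their departures from group means correlated at 0.0874 (males 14 and 17) and 0.0549 (males 15 and 16). Every value column was used, and identical arrays were not found.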

Additional observations from a re-analysis of the deposited data

How the results depend on the processing

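No plasma protein probe set was called for sex or feeding in either tissue under any alternative run. Single differences were followed for every tested probe set of feeding in backfat. In the other comparisons only the probe sets of lowest and highest difference were followed. Of these 250 values 239 kept their sign. That selection, and the filter that fixed the direction of TTR, HPX, PLG and SERPINA1, favour kept signs, so the count is not read as stability of direction. The sign turned in 11, of 3 differences that were each smaller than their SE. The RBP4 other probe set for sex in liver was 0.13, 0.13 and 0.19 without male 16, female 19 and female 21, in a leave-one-out range of -0.45 to 0.19. ALB for sex in backfat was 0.50, 0.51 and 0.62 without male 14, male 15 and female 21, in a range of -1.36 to 0.62, and 0.54 without both male 15 and female 20. FGB for sex in backfat was -1.03, -0.34, -0.15 and -0.51 without male 16, male 17, female 20 and female 22, in a range of -1.03 to 1.88. The adjusted p of the feeding difference in backfat ran over its alternatives from 0.225 to 0.836 for ALB and from 0.379 to 0.986 for FGB (limma). Counts over all probe sets moved more. For sex in liver, 572 were called, against 333 with no filter, 907 with all 16 arrays in 1 fit, and 910 with the animal as a replicate block. With 1 array left out at a time they ran from 177 to 449, with 188, 177 and 313 without males 15, 16 and 17, and 257, 189, 221 and 369 without females 18, 19, 20 and 21. For feeding in liver 0 became 11 in the 16-array fit and 11 with the replicate block, and 0 to 1 without 1 array. For sex in backfat 14 became 27, and 26 with the replicate block, and 11 to 15 without 1 array. For feeding in backfat 0 became 53, and 54 with the replicate block, and 0 to 1 without 1 array. The block thus changed no count by more than 1.5 times against the 16-array fit, where its consensus correlation was 0.026. The median liver minus backfat difference of the 12 probe sets was 10.30, and 10.04 to 10.66 without 1 backfat array. It was 9.34 with values under 4 set to 4, 10.20 within males paired by animal and 11.01 without male 15 and female 20. The median backfat SD of 1.30 was 1.05 to 1.40 without 1 array, 0.58 with values under 4 set to 4 and 0.35 without male 15 and female 20. Low signal over background is 1 limit. Of the 12 probe sets, 7 were above 4 on at most 2 of the 8 backfat arrays, so that their distances to liver and their spread below 4 rest on where GCRMA places its floor, and 4 arrays a side leave SEs above 1 on the log2 scale for ALB and the fibrinogen chains.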
